A study of Mus musculus with 34 samples.

Results

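Bin-2 is a mouse precursor B cell acute lymphoblastic leukaemia line, and the comparison described here sets its cultures on day 3 of continuous exposure to 50 nM nilotinib against its cultures on day 0. The arrays were chosen by their labels alone: the 3 whose titles name the midpoint of the nilotinib course of Bin-2 and the 3 that name its start, 6 of 34 arrays in the series. Nilotinib inhibits the ABL tyrosine kinase. At the midpoint 5 to 10% of the cells excluded Trypan blue, a dye that enters dead cells, and the labels place the beginning of drug tolerance there. Bin-2 came from a leukaemia of a BCR/ABL transgenic mouse of mixed genetic background, so every group carries the transgene. All cultures grew over irradiated mouse embryonic fibroblasts in medium with interleukin-3, and cells that floated or sat loosely on this feeder layer were harvested. The 3 samples of a group were separate plates of 1 line, and a midpoint sample took a larger dish or pooled dishes. For comparison the text uses the midpoint (day 3) and start (day 0) of Bin-2 under 0.25 µM lonafarnib, an inhibitor of farnesyltransferase, and of a second line, 8093, under 20 nM nilotinib, with 3 arrays in each of these groups and 5 to 10% viability at both midpoints. The line 8093 came from a BCR/ABL leukaemia on an inbred C57BL/6J background.

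BCR/ABL is an always active fusion kinase, made by the Philadelphia chromosome in human leukaemia. In precursor B cells it keeps the STAT5, RAS to ERK and PI3K to AKT routes active, which sustain survival and growth that would otherwise need cytokines and the precursor B cell receptor. Transcripts that these routes induce directly, such as Cish and Pim1 for STAT5 and Spry2, Dusp6 and Etv5 for ERK, serve as readouts of the routes. FOXO transcription factors, which AKT holds in the cytoplasm, raise their targets when AKT is less active.

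Values are log2 signals of Affymetrix Mouse Gene 1.0 ST arrays, and a change is the midpoint mean minus the start mean on the log2 scale, given ± its standard error (SE) from a limma model of all 34 arrays. Calls were made at a Benjamini-Hochberg adjusted p below 0.05 among 19938 genes. The midpoint differed from the start in 692 genes (3.47%) by limma's test: 372 were higher (1.87%) and 320 were lower (1.60%). The larger changes were mostly rises: 171 of 204 genes called with a change of at least 2-fold (1.02% of all genes), and past 4-fold 55 genes rose and 2 fell. In 691 of the 692 called genes the arrays of both groups did not overlap, which held for 27.3% of all genes. The call depended on the array left out: without midpoint array 1 the count was 342, without start array 2 it was 422 and without start array 3 it was 438, and 280 genes were called in all 6 such fits. Pearson correlations between arrays over all genes ran from 0.9908 to 0.9937 within the midpoint, from 0.9926 to 0.9944 within the start and from 0.9809 to 0.9905 between the groups. The interquartile range of the arrays averaged 3.45 at the midpoint and 3.51 at the start. The precursor B cell list, whose members include Cd79a, Pax5, Ebf1 and Igll1, averaged 8.69, 8.75 and 8.76 on the midpoint arrays, against 8.77, 8.78 and 8.73 on the start arrays, and 33 of its 34 genes lay above the background level at the midpoint. That level is the 95th percentile of olfactory receptor genes, 4.65 at the midpoint and 4.54 at the start.

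**Figure D1:**
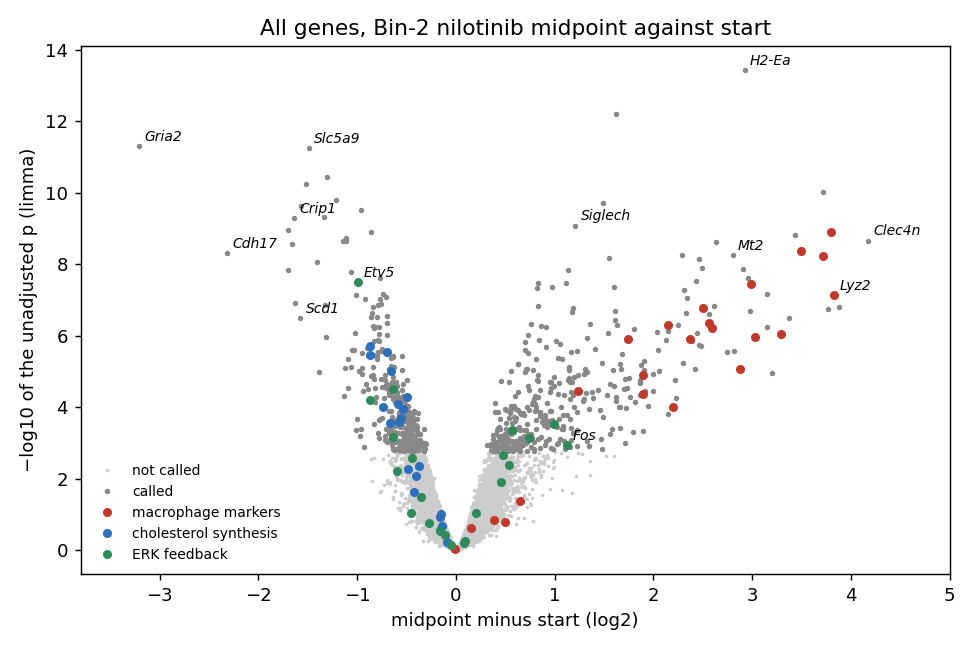
Every gene by its change at the midpoint against the start (x axis, log2) and the −log10 of limma's unadjusted p (y axis). Red, blue and green points are the macrophage, cholesterol synthesis and ERK feedback lists. The point furthest right is Clec4n at 4.17, the red point furthest right is Lyz2 at 3.83, and the point furthest left is Gria2 at -3.21.

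Macrophage and other myeloid transcripts led the rises, and 5 of the 12 largest belong to the macrophage list. Clec4n (dectin-2, a lectin receptor of myeloid cells) read 10.02, 8.27 and 9.42 on the midpoint arrays, against 5.47, 5.59 and 4.12 on the start arrays. The groups did not overlap, midpoint array 2 was the lowest of its group and start array 3 the lowest of its own, and the gene rose by 4.17 ± 0.49 (adjusted p = 2.08e-06), which is 18.05-fold. Lyz2, the lysozyme of macrophages, read 12.09, 10.65 and 11.63 at the midpoint, against 8.0, 7.97 and 6.90 at the start, a rise of 3.83 ± 0.53 (adjusted p = 2.82e-05). Its order among the arrays was that of Clec4n, apart from start arrays 1 and 2, which lay close together. Gpnmb, a membrane glycoprotein of phagocytes, rose by 3.80 ± 0.43 and the chemokine Ccl6 by 3.72 ± 0.46. The macrophage elastase Mmp12 rose by 3.49 ± 0.42 and the complement chain C1qc by 3.29 ± 0.53. Pf4 (3.88 ± 0.56) and Ppbp (3.37 ± 0.51), chemokines stored in platelets and also made by some myeloid cells, were among the 12 largest rises, as were Wfdc17 (3.76 ± 0.55) and Ms4a4a (3.20 ± 0.60), whose start means lay at or below the background level, so that their sizes are not exact. Lilr4b (3.71) and Lilrb4a (3.43), inhibitory receptors of myeloid cells, completed the 12, and since their sequences are near-identical the array may not separate them. In the whole table no gene rose more than Clec4n, and predicted genes and clones were not named. All 12 kept their call when any 1 of the 6 arrays was left out.

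Of the 23 measured genes of the macrophage list 18 rose (1.87% of all genes rose) and 16 of these were called in all 6 fits without 1 array. Its median change was 2.37, against 0.007 over all genes. Csf1r, the receptor of macrophage colony stimulating factor, read 9.76, 9.40 and 9.54 at the midpoint, against 7.41, 7.29 and 7.55 at the start (2.15 ± 0.33, adjusted p = 1.17e-04). Unlike Clec4n and Lyz2, this gene varied little among the midpoint arrays. Adgre1, a surface protein of tissue macrophages, rose by 2.56 ± 0.39, Cd68 by 2.37 ± 0.39 and Mpeg1, the pore-forming perforin-2, by 2.50 ± 0.36. Lyz1 (1.74) is a near-identical copy of Lyz2 and the pair may share signal. The 5 members that were not called were Marco (0.39), Cd163 (0.15), Apoe (-0.01), Ctsk (0.65) and Cybb (0.50). Mrc1, the mannose receptor, rose by 2.19 ± 0.49 (adjusted p = 0.0062) and Cd14 by 1.90 ± 0.39 (adjusted p = 0.00329), but without midpoint array 1 neither was called (adjusted p = 0.0855 and 0.0553). In these bulk samples more cells of a type and more RNA per cell cannot be told apart.

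Marker lists of the other cell types had median changes from -0.001 to 0.30. The macrophage list averaged 8.48, 7.33 and 7.99 on the midpoint arrays, against 5.90, 5.84 and 5.55 on the start arrays, so midpoint array 1 held the most and array 2 the least of this signal, and the start means also lay above the background level. The fibroblast list averaged 5.12, 5.15 and 5.22 at the midpoint, against 4.86, 4.79 and 4.80 at the start. Of its 33 genes 8 rose (1.87% of all genes did) and 1 fell (median 0.30), with Fn1 at 2.42 ± 0.45, Timp3 at 0.92 ± 0.15, the actin Acta2 at 0.84 ± 0.16 and Sparc at 0.82 ± 0.16. The collagens Col1a1 (0.62, adjusted p = 0.00294) and Col1a2 (0.56, adjusted p = 0.00687; 0.0793 without midpoint array 3) rose as well. With the lonafarnib start arrays of Bin-2 as control instead, 3 genes of this list rose, and with both start groups 7. The list averaged 4.99, 4.99 and 4.88 on those lonafarnib start arrays. Fibronectin, the product of Fn1, is also made by macrophages. Fn1 was high where the macrophage list was high, at 7.92, 6.78 and 7.65 on the midpoint arrays. The part of each cell type in the Fn1 rise was not tested. Thy1, which lymphoid progenitors share with fibroblasts, fell by 0.90 on the log2 scale. The mast cell and granulocyte list, with 9 of 26 genes above background at the midpoint, had 0 rises and 3 falls (1.60% of all genes fell). The T and NK cell list (9 of 19 above background) had 0 rises and 4 falls, Nkg7 at -1.09 ± 0.22 and Cd5 at -0.65 ± 0.13 among them, and Cd5 is also carried by some B cells. Of the erythroid and megakaryocyte list only the chemokines Pf4 and Ppbp rose, 2 of 12 genes (1.87% of all genes rose). With each array's macrophage mean as a covariate, a fit chosen after the data were seen, limma called 28 genes. This mean differed between the groups and the median SE was 1.643 times as large, so the lower count does not tell the share of this signal in the other changes, which was not tested.

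**Figure D2:**
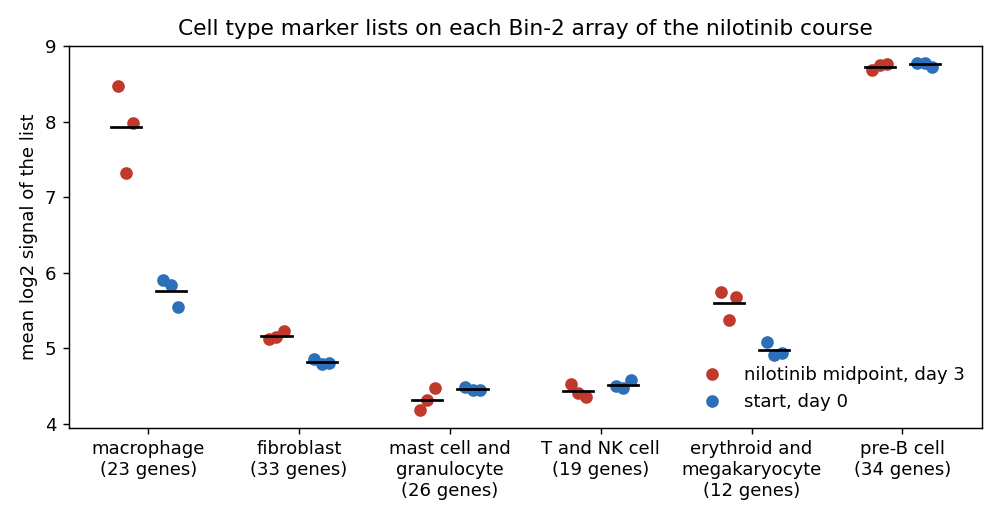
Mean log2 signal of each cell type marker list (y axis) on the 3 midpoint arrays (red) and the 3 start arrays (blue), with a bar at each group's mean. The macrophage list reads 7.33 to 8.48 at the midpoint and 5.55 to 5.90 at the start, while the precursor B cell list reads 8.69 to 8.76 at the midpoint and 8.73 to 8.78 at the start.

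The deepest falls were those of Gria2 and Cdh17, and the 12 largest ranged from -3.21 to -1.40. Gria2, a subunit of AMPA-type glutamate receptors, read 4.19, 4.04 and 4.57 on the midpoint arrays, against 7.26, 7.47 and 7.71 on the start arrays. All 3 midpoint values lay at or below the background level, so the fall (-3.21 ± 0.29, adjusted p = 2.88e-08, 9.28-fold) is at the limit of what the array can show. Cdh17, a cadherin best known from gut epithelium and also found on B lineage cells of mice, read 7.17, 7.43 and 7.41 at the midpoint, against 9.60, 9.62 and 9.73 at the start. It fell by 2.31 on the log2 scale (SE 0.28, adjusted p = 3.82e-06), with a gap between the groups many times the spread within them. Epcam, another cell adhesion molecule, read 4.88, 5.36 and 5.62 at the midpoint, against 6.98, 6.80 and 7.19 at the start (-1.70 ± 0.22). Crip1, a small zinc-binding protein, read 7.89, 7.89 and 7.84 at the midpoint, against 9.48, 9.46 and 9.60 at the start (-1.64 ± 0.18, adjusted p = 7.96e-07). Slc5a9, a sugar transporter, fell by 1.49 on the log2 scale (SE 0.13, adjusted p = 2.88e-08), and Atp1b1, a subunit of the sodium pump, by 1.57 (SE 0.17) to a level at or below background. Sytl2, which tethers secretory vesicles (-1.52 ± 0.15), also ended there. Angpt1, a ligand of the TIE2 receptor that blood progenitors make, fell by 1.40 (SE 0.18) and Rnase12, a member of the ribonuclease A family, by 1.66 (SE 0.20). Ctsg, the granule protease cathepsin G, fell by 1.63 (SE 0.23), and ccdc198, spelled as in the annotation, by 1.70 (SE 0.19). Scd1, described with the lipid genes, is the remaining one of the 12 largest falls. Each of the 12 kept its call when any 1 of the 6 arrays was left out, and these arrays showed no common order: midpoint array 1 was the lowest for Cdh17 and Epcam and the highest for Scd1, Ctsg and Angpt1.

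Among signalling genes, Abl1, which shares sequence with the transgene, changed by -0.02 ± 0.09 (adjusted p = 0.962), and Bcr by -0.11 ± 0.15 (adjusted p = 0.81). Neither passed the test, and the array does not tell the fusion transcript from the mouse genes where they share sequence. Of the 20 STAT5 target genes 2 rose and 1 fell (3.47% of all genes called), with a median of 0.14. Pim2, a survival kinase, read 8.60, 8.51 and 8.38 on the midpoint arrays, against 7.82, 7.52 and 7.64 on the start arrays. Every midpoint array was above every start array, and the gene rose by 0.83 ± 0.11 (adjusted p = 1.61e-05). Socs3, an inhibitor that cytokine receptors induce through STAT proteins, read 7.99, 7.78 and 7.74 at the midpoint, against 7.17, 7.02 and 6.97 at the start, a rise of 0.78 ± 0.15 (adjusted p = 0.00102). Lta, the cytokine lymphotoxin alpha, fell by 0.58 (adjusted p = 0.0323) to below background and was not called in any fit without 1 array (adjusted p up to 0.137, without start array 2). The readouts most used for STAT5 did not pass: Cish changed by 0.33 ± 0.14 (adjusted p = 0.23), Pim1 by 0.31 ± 0.15, Bcl6 by 0.49 ± 0.19 and Socs2 by -0.06 ± 0.12. Cish read 6.67, 6.92 and 6.68 at the midpoint, against 6.43, 6.42 and 6.42 at the start, above every start array although short of a call.

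The 250 bases before the start of Socs3 are shown because it is the rising STAT target whose promoter holds the STAT letters TTCNNNGAA. The sequence is from RefSeq, build GRCm38.p6, minus strand, at chr11:117969367-117969616, and capitals mark the match.
Socs3: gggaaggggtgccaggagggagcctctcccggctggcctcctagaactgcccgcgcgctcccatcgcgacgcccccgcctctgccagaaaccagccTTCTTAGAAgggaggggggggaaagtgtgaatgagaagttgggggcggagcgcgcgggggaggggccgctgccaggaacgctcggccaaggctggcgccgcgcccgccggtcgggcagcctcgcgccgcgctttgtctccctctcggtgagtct
This motif, which reads alike on both strands, occurred in 2 of the 3 called STAT5 targets that had a promoter entry (Socs3 and Lta), in 1 of 10 that were not called (Bcl6) and in 8.13% of all genes with an entry. The called genes that hold it moved in opposite directions. A match of letters is a description of the window and not a bound site.

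ERK feedback genes moved both ways. Of the 22 measured, 4 fell and 4 rose, against 1.60% and 1.87% of all genes, and the median was -0.08. With the lonafarnib start arrays of Bin-2 as control 4 fell and 1 rose, and with both start groups 5 fell and 6 rose. Etv5, an ETS transcription factor that follows ERK activity, read 7.08, 6.87 and 7.05 on the midpoint arrays, against 8.04, 8.08 and 7.86 on the start arrays. It fell by 0.99 on the log2 scale (SE 0.13, adjusted p = 1.55e-05) and was called whichever array was left out. Spry2, an inhibitor of receptor signalling to RAS, read 5.70, 5.43 and 5.34 at the midpoint, against 6.03, 5.96 and 6.40 at the start (-0.64 ± 0.13, adjusted p = 0.00258). The related Etv4 (-0.87 ± 0.18) fell to below background and Spry4 fell by 0.63 (adjusted p = 0.0268). Etv4 was not called without midpoint array 2 (adjusted p = 0.0515), nor Spry4 without start array 2 (adjusted p = 0.177). The ERK phosphatase Dusp6 (-0.36 ± 0.16, adjusted p = 0.269), Spred1 (-0.44) and Spred2 (-0.60) did not pass. The rising members were immediate early genes: Fos by 1.13 ± 0.31, Ier3 by 0.99 ± 0.24 and Egr1 by 0.74 ± 0.19, with the inhibitor Spred3 at 0.57 ± 0.14. Fos read 6.49, 5.17 and 5.71 on the midpoint arrays, against 4.74, 4.86 and 4.39 on the start arrays, with array 1 highest and array 2 lowest as for the macrophage list. Without midpoint array 1 Fos, Ier3 and Egr1 were not called (adjusted p = 0.316, 0.0969 and 0.19), nor was Spred3 without start array 3 (adjusted p = 0.193), and without midpoint array 3 none of the 4 was called. The part of macrophage signal in these immediate early genes was not tested.

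Of 29 FOXO and PI3K target genes 2 rose and 1 fell, against 1.87% and 1.60% of all genes (median 0.10). Txnip, an inhibitor of thioredoxin and of glucose uptake, rose by 0.41 ± 0.11 (adjusted p = 0.0342) and Sesn3, a sestrin that FOXO induces, by 0.37 ± 0.11 (adjusted p = 0.0454), while Trib3 fell by 0.47 (adjusted p = 0.0324). Each of these 3 lost its call in at least 1 fit without an array: Txnip without midpoint array 1 (adjusted p = 0.159), Sesn3 without start array 3 (0.165) and Trib3 without midpoint array 2 (0.231). The FOXO letters TGTTTAC on either strand occurred in the promoter of Txnip among the 3 called genes, in 2 of 22 that were not called and in 3.54% of all genes. Bcl2l11, which encodes the death protein BIM, read 8.25, 8.11 and 8.18 at the midpoint, against 7.78, 7.82 and 7.88 at the start. The difference of 0.35 ± 0.12 did not pass (adjusted p = 0.128), although the groups did not overlap. Other survival genes were also short of a call, Mcl1 at 0.29 ± 0.15 and Bcl2l1 (BCL-XL) at 0.19. Of 15 members of the BCL2 family 1 was called, where 3.47% of all genes were. This was Bok, a relative of the pore-forming death proteins, which read 6.05, 6.03 and 5.92 at the midpoint, against 6.90, 6.95 and 6.64 at the start (-0.83 ± 0.14, adjusted p = 4.73e-04). Myc itself changed by -0.16 ± 0.15 (adjusted p = 0.694). Its relative Mycn read 5.32, 5.10 and 5.00 at the midpoint, against 6.39, 6.39 and 6.58 at the start. It fell by 1.31 on the log2 scale (SE 0.21, adjusted p = 2.10e-04) and was the 1 called gene of the 13 in the MYC network (3.47% of all genes were called).

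**Figure D3:**
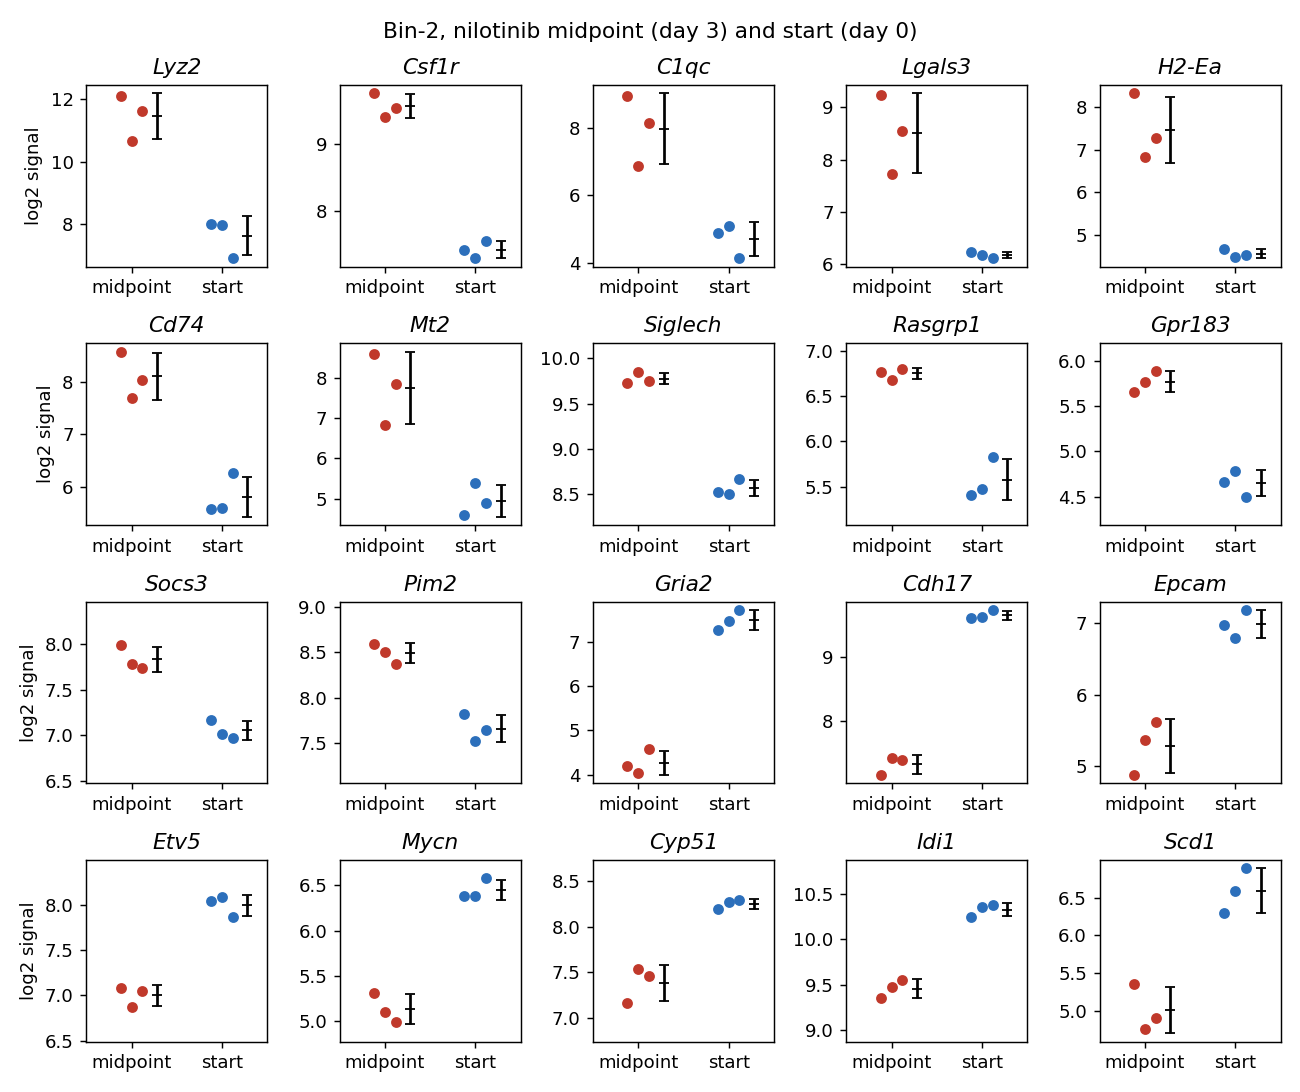
Log2 signal of 20 genes on the 3 midpoint arrays (red) and the 3 start arrays (blue), each point 1 array, with the group mean and SD in black and a separate y axis for each gene that need not begin at 0. Lyz2, C1qc, Lgals3, H2-Ea and Mt2 spread widely among the midpoint arrays, with array 2 lowest, while Siglech (9.73 to 9.85), Rasgrp1 (6.68 to 6.80) and Pim2 (8.38 to 8.60) lie close together.

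Of 34 precursor B cell identity genes 1 rose and 2 fell, against 1.87% and 1.60% of all genes. The changes went both ways, 16 above 0 and 18 below (median -0.02), and 13 had an unadjusted p below 0.05, which held for 15.1% of all genes. Lef1, a transcription factor of early lymphocytes, read 8.93, 9.05 and 8.90 at the midpoint, against 9.61, 9.59 and 9.51 at the start (-0.61 ± 0.12, adjusted p = 0.00184). Igll1, the lambda5 part of the surrogate light chain, read 11.54, 11.60 and 11.45 at the midpoint, against 12.04, 11.99 and 12.09 at the start. It fell by 0.51 (SE 0.13, adjusted p = 0.0176) but was not called without midpoint array 3 (adjusted p = 0.0877). Its partner Vpreb1 (-0.34 ± 0.19), the lineage factors Pax5 (0.44 ± 0.19) and Ebf1 (-0.37 ± 0.13), the recombinase Rag1 (0.02 ± 0.21) and the interleukin-7 receptor chain Il7r (0.29 ± 0.16) were not called. Spib, an ETS factor of B cells and plasmacytoid dendritic cells, rose by 0.60 ± 0.14 (adjusted p = 0.00699; 0.0508 without midpoint array 1).

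Among the 25 genes of precursor B cell receptor signalling 3 rose and 2 fell (1.87% and 1.60% of all genes did). Rasgrp1, an exchange factor that activates RAS in response to diacylglycerol, read 6.76, 6.68 and 6.80 on the midpoint arrays, against 5.41, 5.48 and 5.83 on the start arrays. The midpoint values lay within 0.12 of each other, and the rise was 1.17 ± 0.17 (adjusted p = 6.03e-05). Bank1, a B cell scaffold, rose by 0.85 ± 0.17 with a start mean at or below background, and the adaptor Lat2, which macrophages also use, by 0.96 ± 0.22 (adjusted p = 0.00744; 0.0553 without midpoint array 1). Prkcb, the protein kinase C of B cell receptor signalling, read 6.45, 6.02 and 6.40 at the midpoint, against 6.86, 6.98 and 6.99 at the start (-0.65 ± 0.12, adjusted p = 5.71e-04). The receptor chains Cd79a (-0.40, adjusted p = 0.0575) and Cd79b (-0.10) and the kinases Syk (0.21) and Btk (-0.06) were not called.

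In the list drawn up for later B cells 6 of 27 genes rose, against 1.87% of all genes, and 0 fell (median 0.23). Gpr183, the receptor that guides B cells by oxysterols, read 5.65, 5.76 and 5.88 at the midpoint, against 4.67, 4.79 and 4.50 at the start, a rise of 1.11 ± 0.15 (adjusted p = 1.55e-05). It was the 1 rise of this list that was also called without midpoint array 1. The other 5 were Fcgr2b (1.65 ± 0.36), Cd86 (1.46 ± 0.33), Il4ra (0.97 ± 0.23), Ly6d (0.81 ± 0.19) and Spib, and without midpoint array 1 their adjusted p ran from 0.0508 for Spib to 0.154 for Il4ra. Spib is also counted in the precursor B cell identity list, and Ly6d is also found on B cell progenitors. Fcgr2b, Cd86 and Il4ra are carried by macrophages too and followed the macrophage list among the midpoint arrays, Fcgr2b with 7.52, 6.20 and 6.83. The part of macrophage signal in these rises was not tested. The mature B cell genes Ms4a1 (0.06), Cr2 (0.25) and Fcer2a (-0.30) were below the background level in both groups and were not called. In the recombination list Nhej1 (-0.65 ± 0.13) and Xrcc5 (-0.56 ± 0.14), end-joining factors, were the 2 falls among 14 genes (1.60% of all genes fell). Without midpoint array 1 Xrcc5 was not called (adjusted p = 0.0903). With the lonafarnib start arrays of Bin-2 as control 0 recombination genes fell, and with both start groups 3 did.

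Cholesterol synthesis had the largest share of falling genes among the lists. Of 20 measured genes 11 fell and 0 rose (1.60% of all genes fell), all 20 changes lay below 0, and the median was -0.52. Cells make sterols from acetyl-CoA through mevalonate, and the transcription factor SREBP2 raises these genes together when sterols are scarce. Cyp51, the lanosterol demethylase, read 7.16, 7.54 and 7.45 on the midpoint arrays, against 8.20, 8.27 and 8.30 on the start arrays. All 3 midpoint arrays were lower, array 1 the most, and the fall was 0.87 on the log2 scale (SE 0.15, adjusted p = 4.73e-04). Idi1, the isomerase of the isoprenoid units, read 9.35, 9.48 and 9.55 at the midpoint, against 10.25, 10.36 and 10.38 at the start (-0.87 ± 0.15, adjusted p = 3.10e-04). Insig1, the sterol-responsive anchor of SREBP in the endoplasmic reticulum, read 9.0, 9.20 and 9.05 at the midpoint, against 9.71, 9.78 and 9.87 at the start (-0.70 ± 0.12, adjusted p = 4.12e-04). Fdps, which makes farnesyl diphosphate (-0.66), and Dhcr7, which makes cholesterol itself (-0.50), fell too, and these 5 genes were called in every fit without 1 array. The other 6, Lss (-0.74), Hsd17b7 (-0.66), Msmo1 (-0.58), Fdft1 (-0.58), Hmgcs1 (-0.56) and Sqle (-0.54), fell in the fit to all arrays, and each missed the threshold in at least 1 fit without an array, with 7 of the 11 left without start array 3. Srebf2, the gene of SREBP2, differed by -0.15 and was not called (adjusted p = 0.446).

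Promoters of 4 genes are shown because these falls move together: the 3 described above, and Hmgcs1, the entry enzyme, chosen after values were seen because it alone held the sterol element searched. Each is the 250 bases before the gene's start in RefSeq, build GRCm38.p6: Cyp51 at chr5:4104698-4104947 (minus strand), Idi1 at chr13:8885356-8885605, Insig1 at chr5:28071162-28071411 and Hmgcs1 at chr13:119690101-119690350 (plus strand). Capitals mark CCAAT, the letters bound by NF-Y, or its reverse ATTGG, and the sterol element letters TCACNCCAC.
Cyp51: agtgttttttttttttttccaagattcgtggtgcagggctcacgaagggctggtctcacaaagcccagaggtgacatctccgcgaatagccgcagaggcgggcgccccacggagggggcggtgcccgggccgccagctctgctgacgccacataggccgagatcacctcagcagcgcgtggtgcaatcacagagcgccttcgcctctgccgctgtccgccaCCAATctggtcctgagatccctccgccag
Idi1: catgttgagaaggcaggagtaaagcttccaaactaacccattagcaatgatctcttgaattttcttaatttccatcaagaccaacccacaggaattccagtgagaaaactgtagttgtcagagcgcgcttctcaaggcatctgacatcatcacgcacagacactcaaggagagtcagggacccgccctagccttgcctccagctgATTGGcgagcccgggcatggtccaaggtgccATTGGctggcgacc
Insig1: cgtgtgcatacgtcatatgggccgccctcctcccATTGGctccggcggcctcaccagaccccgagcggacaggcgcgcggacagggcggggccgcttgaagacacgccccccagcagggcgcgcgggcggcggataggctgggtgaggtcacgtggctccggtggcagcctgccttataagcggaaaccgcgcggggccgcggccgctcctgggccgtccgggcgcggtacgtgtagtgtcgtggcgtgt
Hmgcs1: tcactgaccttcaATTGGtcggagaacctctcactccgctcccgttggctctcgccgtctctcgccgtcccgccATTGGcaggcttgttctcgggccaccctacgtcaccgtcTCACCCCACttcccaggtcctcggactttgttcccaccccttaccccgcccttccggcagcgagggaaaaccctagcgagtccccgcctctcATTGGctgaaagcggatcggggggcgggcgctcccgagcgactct
Both motifs were searched on both strands, were picked after values were seen, and do not overlap each other in these windows. CCAAT was present in 8 of the 8 called genes of the list with a promoter entry and in 8 of the 8 that were not called, against 37.5% of all genes. The sterol element letters were in 1 of the 8 called genes, Hmgcs1, in 0 of the 8 others and in 1.22% of all genes. These letters do not separate genes that fell from genes that were not called.

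Fatty acid genes had 3 falls among 14 (1.60% of all genes fell) and 0 rises. Scd1, the stearoyl-CoA desaturase, read 5.36, 4.77 and 4.92 at the midpoint, against 6.29, 6.59 and 6.88 at the start. It fell by 1.58 on the log2 scale (SE 0.24, adjusted p = 8.39e-05), the steepest of the lipid genes. Its relative Scd2 was brighter and more even, with 10.17, 10.16 and 10.12 at the midpoint, against 10.91, 10.87 and 10.94 at the start (-0.76 ± 0.11, adjusted p = 4.51e-05). Fasn, the fatty acid synthase, fell by 0.32 (adjusted p = 0.0498; 0.163 without start array 3), and Srebf1 (-0.29) was not called.

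Genes of antigen presentation by MHC class II rose in part. Of 9 measured genes 4 rose (1.87% of all genes did), and all 9 changes lay above 0 (median 0.58). H2-Ea, the alpha chain of the I-E molecule, read 8.34, 6.83 and 7.27 on the midpoint arrays, against 4.67, 4.47 and 4.52 on the start arrays. The start mean was just above the background level, and the gene rose by 2.92 ± 0.21 (adjusted p = 7.37e-10). Its partner H2-Eb1 rose by 1.55 ± 0.19, H2-Aa of the I-A molecule by 2.63 ± 0.31 and Cd74, the invariant chain that guides class II molecules, by 2.28 ± 0.28. Each of the 4 was called in all fits without 1 array. The master regulator Ciita (0.06) and the peptide exchange chains H2-DMa (0.17) and H2-Oa (0.07) were not called, nor was H2-Ab1 (0.58, adjusted p = 0.212). Midpoint array 1 was highest and array 2 lowest for all 4 rising genes, as for the macrophage list, and the part of macrophages was not tested.

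In the list of lysosomal and autophagy genes 10 of 29 rose (1.87% of all genes rose), 6 of them also without midpoint array 1, and 0 fell. Cathepsin L (Ctsl) read 9.29, 7.61 and 8.52 at the midpoint, against 6.36, 6.56 and 6.36 at the start (2.04 ± 0.35), and cathepsins B (Ctsb, 1.61 ± 0.24), D (Ctsd, 1.54 ± 0.25) and S (Ctss, 1.31 ± 0.24) rose with it. Autophagy genes such as Sqstm1 (0.20), Map1lc3b (-0.04) and Becn1 (0.03) were not called. Mt2, a metallothionein that binds zinc and cadmium, read 8.59, 6.81 and 7.84 at the midpoint, against 4.59, 5.38 and 4.88 at the start. This rise of 2.80 ± 0.34 (adjusted p = 3.94e-06) and that of Hmox1, the haem oxygenase (1.99 ± 0.38), were called whichever array was left out. Mt1 (0.81 ± 0.20) and the ferritin light chain Ftl1 (0.77 ± 0.17) were not called without midpoint array 1 (adjusted p = 0.215 and 0.0822). The NRF2 targets Nqo1 (0.18), Gclm (-0.01) and Txnrd1 (0.07) were not called, and of all 17 genes in the NRF2 and metallothionein list 4 rose (1.87% of all genes did) and 0 fell. Lgals3, galectin-3, read 9.25, 7.72 and 8.55 at the midpoint, against 6.23, 6.18 and 6.12 at the start (2.33 ± 0.35, adjusted p = 6.38e-05), while Lgals9, galectin-9, fell by 0.77 (SE 0.10, adjusted p = 1.24e-05). The integrin chain Itgam (2.99 ± 0.40), the tetraspanin Cd9 (2.12 ± 0.35) and the hyaluronan receptor Cd44 (1.68 ± 0.29) led the adhesion list, where 5 of 25 rose and 1 fell, against 1.87% and 1.60% of all genes. Itga4, the alpha4 integrin of leukaemia cells that binds VCAM-1, was even at 10.96, 10.98 and 11.04 at the midpoint, against 10.51, 10.53 and 10.27 at the start, and rose by 0.56 ± 0.10. S1pr3, a sphingosine-1-phosphate receptor, fell by 0.54 (adjusted p = 0.0227; 0.14 without start array 3). Itgam is also a member of the macrophage list, so its rise is counted in both lists, and Cd9 and Cd44 are expressed by macrophages too.

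**Figure D4:**
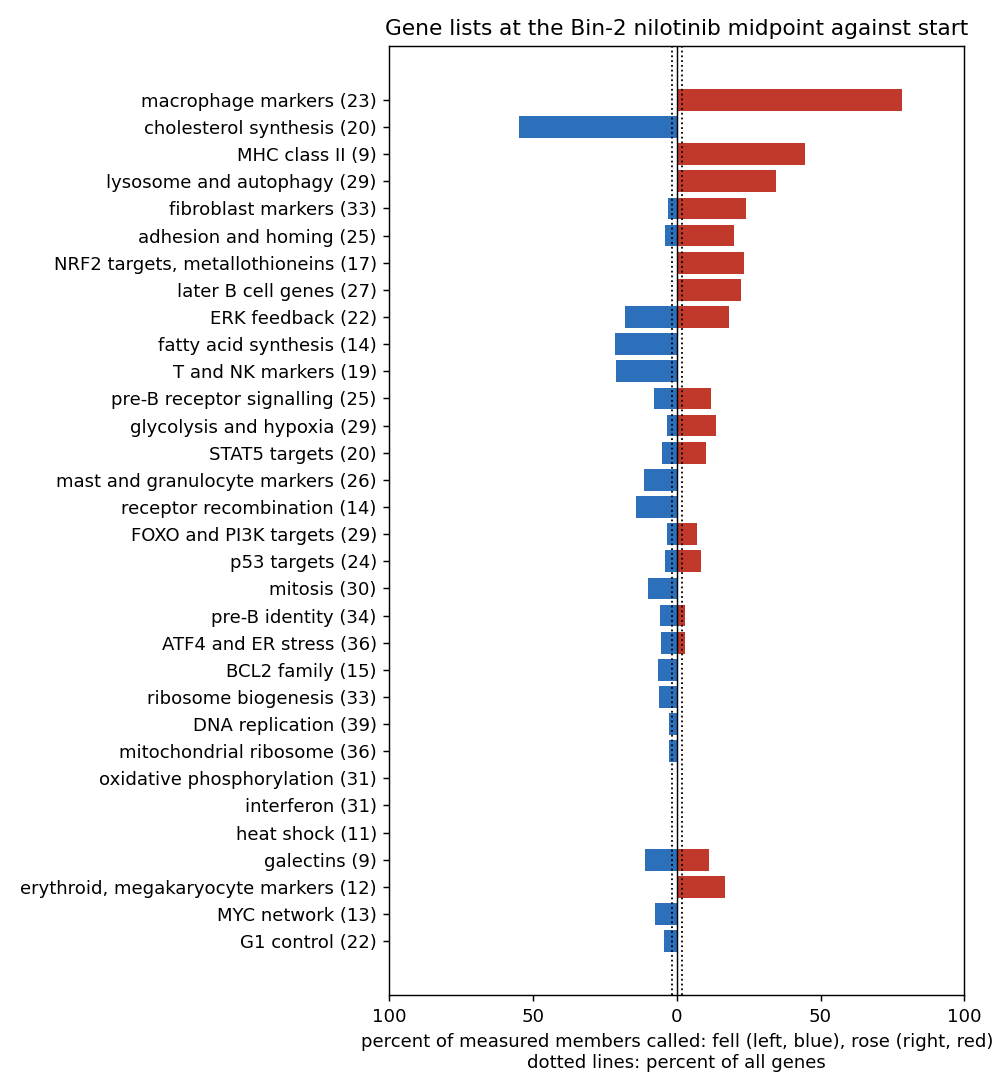
Percent of each gene list's measured members (number in brackets) that rose (right, red) or fell (left, blue) at the midpoint against the start. Dotted lines mark the 1.87% of all genes that rose and the 1.60% that fell. The macrophage list has 18 of 23 genes rising, the cholesterol list 11 of 20 falling, and the oxidative phosphorylation, interferon and heat shock lists have no called gene.

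Most growth and division genes did not pass. All 30 mitosis genes had changes below 0 with a median of -0.28, and 3 of them fell (1.60% of all genes did): Plk1, a mitotic kinase (-0.46 ± 0.13), its activator Bora (-0.42 ± 0.12) and the kinetochore protein Ndc80 (-0.41 ± 0.11). None of the 3 kept its call in every fit without 1 array, and their highest adjusted p were 0.225 and 0.281 for Plk1 and Bora without midpoint array 1 and 0.124 for Ndc80 without start array 2. Gtse1, a mitotic microtubule protein that restrains p53, was firmer, at 7.45, 7.73 and 7.69 at the midpoint, against 8.43, 8.34 and 8.46 at the start (-0.79 ± 0.11, adjusted p = 4.54e-05). Of 39 DNA replication genes 1 fell (median -0.17), of 33 ribosome biogenesis genes 2 fell (median -0.24) and of 36 mitochondrial ribosome genes 1 fell (median -0.17), beside the same 1.60%. The single replication gene was Mcm10, with a change of -0.37 ± 0.10 (adjusted p = 0.0311; 0.18 without midpoint array 1). Changes below 0 made up 36 of the 39 replication, 32 of the 33 ribosome biogenesis and 33 of the 36 mitochondrial ribosome genes. Over all genes 9652 of 19938 changes lay below 0. An unadjusted p below 0.05 held for 16 of the 30 mitosis, 10 replication, 13 ribosome biogenesis and 10 mitochondrial ribosome genes. Oxidative phosphorylation had 0 of 31 called, with 30 changes below 0 (median -0.12) and 5 at an unadjusted p below 0.05. Interferon genes had 0 of 31 called (9 at an unadjusted p below 0.05, median 0.11), where 15.1% of all genes had such a p. Ccnd3, cyclin D3, which drives precursor B cells through G1, fell by 0.49 (adjusted p = 0.0267; 0.11 without midpoint array 1), while Ccnd2 (0.16 ± 0.11) and the inhibitor Cdkn1b (0.36 ± 0.13) were not called. Of 24 p53 targets 2 rose and 1 fell (1.87% and 1.60% of all genes did), Btg2 (0.80 ± 0.17), Trp53inp1 (0.39 ± 0.11) and Gtse1, and without start array 3 neither rise was called.

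The drug was compared next by setting the midpoint change of Bin-2 under nilotinib against that under lonafarnib, 3 midpoint and 3 start arrays for each, with their own start arrays. Limma called the difference of changes in 295 genes (1.48%), 207 higher under nilotinib (1.04%) and 88 lower (0.441%). Leaving out 1 array lowered the count to 153 without nilotinib start array 1, 162 without start array 2, 159 without midpoint array 1 and 162 without lonafarnib start array 2. After scaling each array by its interquartile range, which averaged 3.16 at the lonafarnib midpoint, 149 were higher and 137 lower. Siglech, a lectin of plasmacytoid dendritic cells, read 9.73, 9.85 and 9.75 at the nilotinib midpoint, against 8.53, 8.50 and 8.67 at its start. It rose by 1.21 ± 0.14 under nilotinib and fell by 1.07 under lonafarnib (SE 0.14), a difference of 2.28 ± 0.19 (adjusted p = 2.52e-08). Pld4, a nuclease of the endosome found in plasmacytoid dendritic and B cells, differed by 1.91 ± 0.30 and Ly6d, a surface protein of B cell progenitors, by 1.84 ± 0.27, and each was called as rising under nilotinib and as falling under lonafarnib. Flt3, the receptor of FLT3 ligand on lymphoid progenitors, also went both ways, with 0.69 ± 0.13 under nilotinib and -0.59 ± 0.13 under lonafarnib, and so did Spib (0.60 and -0.78). Csf1r rose by 2.15 ± 0.33 under nilotinib and changed by -0.39 ± 0.33 under lonafarnib, a difference of 2.54 ± 0.47 (adjusted p = 0.00373). For Mpeg1 the difference was 2.12 ± 0.52 (adjusted p = 0.031), and it was not called in 8 of 12 fits without 1 array, at most 0.092 without lonafarnib midpoint array 2. The macrophage list averaged 7.14, 6.83 and 7.06 at the lonafarnib midpoint, against 5.81, 5.78 and 5.49 at its start. Of its 23 genes 12 rose there, where 4.45% of all genes rose. Of the 23 genes 2, Csf1r and Mpeg1, differed between the drugs, both higher under nilotinib (1.04% of all genes were). In the MHC class II list 4 of 9 genes were higher under nilotinib (1.04% of all genes were), H2-Ea by 1.72 ± 0.30 (adjusted p = 0.00201) in every fit without 1 array, while H2-Aa (1.76 ± 0.44) and Cd74 (1.71 ± 0.39) were not called without midpoint array 1 (adjusted p = 0.127 and 0.0863).

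Of the 20 STAT5 targets 2 were called in the same difference, both higher (1.04% of all genes were), and of the 22 ERK feedback genes 1, which was lower (0.441% of all genes were). Cish (0.50 ± 0.20, adjusted p = 0.219), Pim1 (0.35, adjusted p = 0.464), Spry2 (-0.07, adjusted p = 0.922) and Dusp6 (-0.42, adjusted p = 0.388) did not pass. Pim2 stood 1.00 ± 0.16 higher under nilotinib (adjusted p = 7.29e-04), Socs3 1.04 ± 0.21 (adjusted p = 0.006), Rasgrp1 1.24 ± 0.25 (adjusted p = 0.00629) and Gpr183 1.23 ± 0.21 (adjusted p = 0.00176), with lonafarnib changes of -0.17, -0.26, -0.06 and -0.11. Etv5 stood lower by 1.08 (SE 0.19, adjusted p = 0.00201), with 0.09 ± 0.13 under lonafarnib. These 5 differences were called in all 12 fits without 1 array. Among the falls, Cdh17 (-2.66 ± 0.40), Gria2 (-2.64 ± 0.40), Epcam (-1.58 ± 0.31), Angpt1 (-1.56 ± 0.25) and ccdc198 (-1.43 ± 0.27) were lower under nilotinib than under lonafarnib, where none of the 5 was called. The lipid genes did not pass: Cyp51 differed by -0.05 ± 0.21 and Scd1 by -0.03 ± 0.34, and 0 of 20 cholesterol genes were called. All 20 fell at the lonafarnib midpoint, by a median of -0.70, against a median of -0.52 at the nilotinib midpoint. The change under lonafarnib alone was called in 3287 genes (16.5%). Of the 372 genes that rose under nilotinib 83 (22.3%) rose at the lonafarnib midpoint too, where 4.45% of all genes rose, and they are 9.36% of its rises. Of the 320 that fell, 156 (48.8%) fell there too, where 12% of all genes fell, and they are 6.50% of its falls.

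The lines were compared by the difference between the nilotinib changes of Bin-2 and of 8093. It was called in 5188 genes (26%), 3591 higher in Bin-2 and 1597 (8.01%) lower, and the change in 8093 alone, whose midpoint arrays had a mean interquartile range of 3.03, was called in 9988 genes (50.1%). Scaling each array by its interquartile range moved the median difference of all genes to 0.15, against 0.02 without it. The changes of growth genes were higher in Bin-2: all 30 mitosis genes and all 31 oxidative phosphorylation genes passed this test (18% of all genes were higher), with medians of 1.07 and 0.84. All genes of both lists fell in 8093. The interquartile range averaged 3.44 on the 8093 start arrays, above the 3.03 of its midpoint, and the effect of scaling on these 2 lists was not tested. Mt2 rose by 2.80 in Bin-2 and fell by 0.89 in 8093, a difference of 3.69 ± 0.48 (adjusted p = 1.57e-06). H2-Ea differed by 3.09 ± 0.30 (adjusted p = 1.43e-08), with -0.17 ± 0.21 in 8093, whose C57BL/6 background carries a deletion that silences this gene. Flt3 rose in Bin-2 and fell by 2.12 in 8093 (difference 2.81 ± 0.18). Rnase12 and Pdcd1, which encodes the inhibitory receptor PD-1, fell in both lines and less in Bin-2, with differences of 2.36 ± 0.28 and 2.27 ± 0.19, although the fall of Pdcd1 in Bin-2 was not called without midpoint array 3 (adjusted p = 0.0697). The changes of myeloid genes were smaller in Bin-2: F13a1 (-4.60 ± 0.49), Lyz2 (-3.84 ± 0.76), Arg1 (-3.26 ± 0.68), C3ar1 (-2.96 ± 0.55) and Lilrb4a (-2.96 ± 0.56) rose in both lines and less in Bin-2. These are differences of changes and not of levels. Lyz2 averaged 7.6 at the start in Bin-2 and 4.8 in 8093, with midpoints of 11.5 and 12.4. Lilrb4a averaged 5.1 and 4.0 at the start, with midpoints of 8.6 and 10.4. In Bin-2 the rises of F13a1 and Arg1 were not called without midpoint array 1 (adjusted p = 0.0561 and 0.172). The macrophage list averaged 8.14, 8.78 and 8.04 on the 8093 midpoint arrays, against 4.92, 4.94 and 4.88 on its start arrays. The changes of Pim2 (1.06 ± 0.16), Bank1 (1.74 ± 0.24) and Siglech (2.19 ± 0.19) were higher in Bin-2 and that of Prkcb (-1.77 ± 0.16) was lower. For Etv5 (0.39 ± 0.19, adjusted p = 0.127) and Socs3 (-0.46 ± 0.21, adjusted p = 0.105) the difference between lines did not pass. Of the genes that rose in Bin-2, 295 of 372 (79.3%) rose in 8093, where 22.6% of all genes rose, and they are 6.55% of its rises. Of those that fell, 244 of 320 (76.2%) fell there, where 27.5% of all genes fell, and they are 4.45% of its falls.

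**Figure D5:**
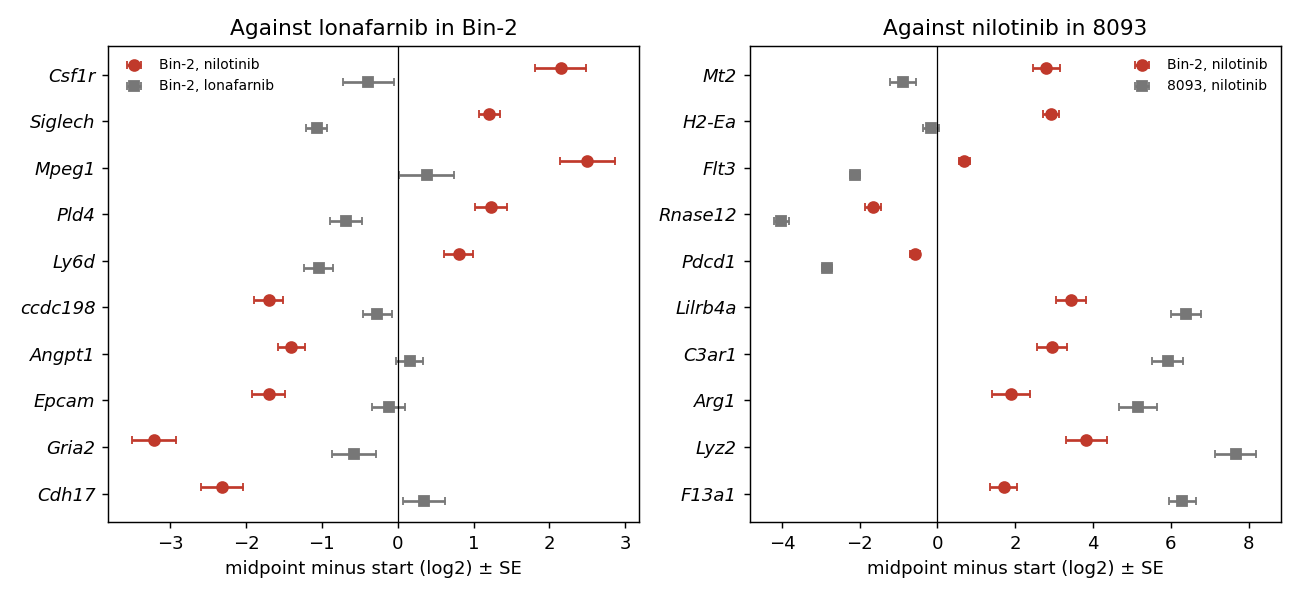
Midpoint minus start (x axis, log2) ± SE for genes also called at the Bin-2 nilotinib midpoint, the 5 in each direction whose change differed most between drugs (left panel) and between lines (right panel). Red circles are Bin-2 under nilotinib and grey squares are Bin-2 under lonafarnib or 8093 under nilotinib. Siglech, Pld4 and Ly6d lie on opposite sides of 0 for the 2 drugs, as do Mt2 and Flt3 for the 2 lines.

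The end of the same course, day 21 at about 90% viability, shares the start arrays with the midpoint comparison, so its values are only set beside those of the midpoint. Gria2 averaged 7.48 ± 0.23 on day 0, 4.27 ± 0.28 on day 3 and 4.31 ± 1.01 on day 21 (SD, n = 3 each). Crip1 averaged 9.51 ± 0.07 on day 0, 7.87 ± 0.03 on day 3 and 8.60 ± 0.35 on day 21. Among rising genes H2-Ea averaged 4.56 ± 0.11 on day 0, 7.48 ± 0.78 on day 3 and 9.81 ± 0.38 on day 21. Siglech averaged 8.57 ± 0.09, 9.78 ± 0.07 and 9.32 ± 0.22 at the same 3 times, and Pim2 was 0.83 above the start at the midpoint and 0.46 above it at the end. Cyp51 was 0.87 below the start at the midpoint and 1.04 below it at the end, and Prkcb was lower than the start by 0.65 at the midpoint but higher by 0.44 at the end. The macrophage list averaged 9.01, 9.10 and 7.86 on the end arrays.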

How the data were processed

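The deposited table holds log2 signals that the authors normalized for 34 Affymetrix Mouse Gene 1.0 ST arrays, and Partek is named in the submitters' processing notes. How they corrected background and normalized is not given in the sources used here. Of 35557 probesets, 21789 had 1 gene symbol in GEO's platform annotation, 1621 had several and 12147 had none. For 999 genes with several probesets the brightest was kept, which left 19938 genes. Limma 3.58.1 in R 4.3.3 fitted 12 group means over all 34 arrays (22 residual degrees of freedom), with Benjamini-Hochberg adjustment over all genes and a threshold of 0.05. The samples of a group are separate plates of 1 line, so p-values measure the spread between plates. This spread is pooled over the 12 groups, and for a gene that varied more among the midpoint arrays the SE can be too small. The number of arrays limits the precision: tested on simulated data of the midpoint comparison, the fit recovered 55.2% of genes changed 1.5-fold, 95.5% of those changed 2-fold and 100% of those changed 4-fold, among 19938 genes, with 10 false calls. The simulated noise was independent between genes, with 1 SD per gene pooled over the 12 groups. Variation that genes share among the midpoint arrays, as in the macrophage list, was not simulated, so these rates do not hold for such genes.

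The named genes are the 12 largest called rises and falls without overlap, leaving out predicted genes, clones, small RNAs, pseudogenes and olfactory receptors, a set of genes chosen by hand, up to 5 called members of each list in its main direction and 3 in the other, up to 5 genes each way for each difference of changes, and members described as not called where their role needed it. The members and lists were chosen with earlier results of these data known. Replicate numbers did not pair the arrays: the correlations of same-numbered arrays' deviations from their group means ran from -0.064 to -0.006. Alternatives covered the arrays in the fit, the prior, quantile and interquartile range scaling, dim genes, probesets, control arrays, the replicate block and leaving out each array.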

Additional observations from a re-analysis of the deposited data

Results flagged for a closer look

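The change at the Bin-2 nilotinib midpoint differed from that at the Bin-2 lonafarnib midpoint, by limma's test of the difference, in 295 genes. Among genes also called at the nilotinib midpoint, those that stood highest under nilotinib were Csf1r (2.54), Siglech (2.28), Mpeg1 (2.12), Pld4 (1.91) and Ly6d (1.84). Those that stood lowest were Cdh17 (-2.66), Gria2 (-2.64), Epcam (-1.58), Angpt1 (-1.56) and ccdc198 (-1.43). The difference for Mpeg1 was not called in 8 of the 12 fits that left out 1 array, and for the other 9 it was called in all 12.

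The nilotinib midpoint change of Bin-2 differed from that of 8093 in 5188 genes. Among genes also called at the Bin-2 midpoint, Mt2 (3.69), H2-Ea (3.09), Flt3 (2.81), Rnase12 (2.36) and Pdcd1 (2.27) stood highest in Bin-2. Among the same genes the change in Bin-2 stood lowest against that in 8093 for F13a1 (-4.60), Lyz2 (-3.84), Arg1 (-3.26), C3ar1 (-2.96) and Lilrb4a (-2.96). These 10 differences were called in all 12 fits that left out 1 array. The line, the dose and the genetic background change together in this comparison and cannot be told apart.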

How the results depend on the processing

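The 692 calls at the midpoint became 204 with a 2-fold minimum and 28 with the macrophage mean as a covariate. This covariate was added after the data were seen. Leaving out 1 array gave 342 to 619. With the lonafarnib start arrays as control 608 genes were called, and with both start groups 993. A fit to only the arrays of the groups compared gave 676. The replicate number as a block, a term with no basis in pairing, was added to that smaller fit and gave 208. The block fit has fewer residual degrees of freedom than the main fit, so its counts do not show the block alone. For the difference from lonafarnib, 295 genes, the fit to only the arrays compared gave 274, and 34 with the block. This difference became 494 among genes with a mean of at least 5, 613 over every probeset, and 153 to 288 without 1 array. Its share of higher genes was 70.2%, against 63.8% after quantile normalization, 52.1% after interquartile range scaling, 82.6% without dim genes and 40.6% over every probeset. The difference from 8093, 5188 genes, became 7806 over every probeset and 4532 to 5534 without 1 array. It was 4832 in the fit to only the arrays compared, and 4286 with the block in that fit. Of the 120 named genes called at the midpoint, 45 lost the call without 1 of the 6 arrays. In the fit to only the arrays compared 18 lost it, and 60 with the block in that fit. None changed direction in those fits. With the covariate 101 of 112 lost the call, and 12 of these changed direction: Ms4a4a (-0.50), Fos (-0.56), Fcgr2b (-0.65), Cd86 (-0.45), Slc16a3 (-0.047), Ctsl (-0.20), Ctss (-0.13), Hmox1 (-0.44), Mt1 (-0.15), Cd44 (-0.070), Fn1 (-0.11) and Arg1 (-0.88). The part of macrophage signal in these genes was not tested. Signal over background limits 102 rising genes, whose start mean lay at or below the background level, and 28 falling genes, whose midpoint mean did.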

Other observations

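Glycolysis and hypoxia genes moved both ways, with 4 of 29 rising and 1 falling, against 1.87% and 1.60% of all genes. Vegfa, the vascular growth factor, read 8.66, 8.73 and 8.86 at the midpoint, against 8.07, 8.19 and 8.35 at the start, a rise of 0.55 ± 0.12 (adjusted p = 0.00802; 0.0626 without midpoint array 3). Egln3, an oxygen-sensing prolyl hydroxylase, fell by 0.71 on the log2 scale (SE 0.14, adjusted p = 0.00205) and was called without any 1 array. Slc16a3, a lactate exporter, rose by 1.20 ± 0.27 and Eno2, an enolase, by 0.66 ± 0.18, and neither was called without midpoint array 1 (adjusted p = 0.0933 and 0.206). Of 36 genes of amino acid and unfolded protein stress 1 rose and 2 fell, beside the same 1.87% and 1.60%. They included Atf3 at 0.90 ± 0.21 (adjusted p = 0.102 without midpoint array 1) and the serine synthesis enzyme Psat1 at -0.55 ± 0.11 (adjusted p = 0.00276).

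The drug exporters Abcb1a (0.49 ± 0.17, adjusted p = 0.125), Abcb1b (0.49 ± 0.17, adjusted p = 0.111) and Abcg2 (-0.05 ± 0.17) were not called. Among 13768 probesets without exactly 1 gene symbol, 136 were called at the midpoint and are not named here.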
